A study of Homo sapiens with 20 samples.

Results

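Glutathione S-transferases are the enzymes that join glutathione to reactive compounds, and 10 genes of this superfamily were followed through all libraries of a nickel study in BEAS-2B cells. The genes are GSTM1, GSTM2, GSTM3, GSTM4 and GSTM5 of the mu class, GSTP1 (pi), GSTK1 (kappa), GSTO1 (omega) and the membrane-bound MGST1 and MGST3. They are 10 of the 25411 genes in the count files and were taken by symbol. The set was chosen because GSTM2 was higher in the cells of the 6-week nickel exposure. The values of the 10 genes in that comparison (Ni_6W against Control_6W) are therefore given as a description with no test. BEAS-2B is a cell line of human bronchial epithelium, immortalised in culture, and total RNA was sequenced in 20 libraries. Control_3D (n = 4) and Ni_3D (n = 2) are unexposed cells and cells exposed to nickel chloride for 3 days, and Ni_3D+14D (n = 2) carries a label of 3 days with 14 more. The 6-week arm has unexposed Control_6W (n = 2) and exposed Ni_6W (n = 2), and Ni_6W+2W (n = 2) had 2 weeks in medium without nickel after the exposure. Ni_clone (n = 6) is a set of 6 clones with 1 library per clone, grown without nickel from single colonies of cells exposed for 6 weeks to a dose the labels write as 100 mM NiCl2. For the other exposed groups the nickel dose is not given in the sources used here. The labels give the same medium for all groups, and past nickel exposure cannot be told apart from cloning, washing or time in culture. Whether replicates came from separate cultures is not in the labels, and p-values then reflect only the spread between these libraries, which may be technical.

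Cytosolic glutathione S-transferases catalyse the attack of the glutathione thiol on electrophiles such as epoxides, quinones and lipid aldehydes, and the conjugates are then pumped out of the cell and processed to mercapturic acids. Several family genes are textbook targets of the transcription factor NRF2, which is held down by KEAP1 and binds antioxidant response elements. In lung epithelium GSTP1 is known as the dominant cytosolic form, and GSTM1 is known for a common deletion in human populations. GSTM2 is known for the conjugation of quinones such as aminochrome.

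The mu genes lie side by side on chromosome 1, and in the files' coordinates (hg19, from transcript start to transcript end) GSTM4 spans 110198698 to 110208123, GSTM2 110210644 to 110226619, GSTM1 110230418 to 110236367 and GSTM5 110254864 to 110260890 on the plus strand. GSTM3 spans 110276554 to 110283660 on the minus strand. The coding sequences of GSTM1, GSTM2, GSTM4 and GSTM5 are each 657 bases long and were 87.5% to 92.1% identical to each other, and GSTM3 (678 bases) was 69.9% to 72.6% identical to them (GENCODE transcripts matched to RefSeq, GRCh38). How far a read of GSTM2 can be told from a read of its neighbours bears on every value below, and the stretch that separates GSTM2 best, coding bases 469 to 528, is printed here. Capitals in the GSTM2 line mark its 11 bases that none of the other 3 copies share, and capitals in the other lines mark bases that differ from GSTM2.
GSTM2: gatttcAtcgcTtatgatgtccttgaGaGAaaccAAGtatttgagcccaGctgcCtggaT
GSTM1: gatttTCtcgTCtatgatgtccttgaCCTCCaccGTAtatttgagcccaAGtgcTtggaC
GSTM4: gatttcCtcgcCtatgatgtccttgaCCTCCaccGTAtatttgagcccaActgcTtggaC
GSTM5: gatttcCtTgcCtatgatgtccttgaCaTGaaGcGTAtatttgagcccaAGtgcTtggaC
Over its whole coding sequence GSTM2 had 36 bases of its own, and the longest run it shared with GSTM1 was 114 bases. Of all 50-base words in the transcript, 46.5% in GSTM2, 58.1% in GSTM1, 18.5% in GSTM4, 8.0% in GSTM5 and 0% in GSTM3 also occurred in another mu gene. Neither read length nor the handling of reads with several matches is given in the sources used here, so levels of GSTM1, GSTM2, GSTM4 and GSTM5 carry this uncertainty, and GSTM3 does not share it at that length.

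The promoters of the adjacent GSTM2 and GSTM1 are printed because these neighbours had unlike patterns across the libraries. Each is the 250 bases before the RefSeq start on the plus strand of GRCh38.p14, GSTM2 at chr1:109667807-109668056 and GSTM1 at chr1:109687567-109687816, and capitals mark motif matches.
GSTM2: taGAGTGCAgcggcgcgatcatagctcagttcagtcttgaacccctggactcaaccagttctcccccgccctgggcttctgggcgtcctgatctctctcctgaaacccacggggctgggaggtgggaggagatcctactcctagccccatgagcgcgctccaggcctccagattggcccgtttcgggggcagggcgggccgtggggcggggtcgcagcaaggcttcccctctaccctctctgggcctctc
GSTM1: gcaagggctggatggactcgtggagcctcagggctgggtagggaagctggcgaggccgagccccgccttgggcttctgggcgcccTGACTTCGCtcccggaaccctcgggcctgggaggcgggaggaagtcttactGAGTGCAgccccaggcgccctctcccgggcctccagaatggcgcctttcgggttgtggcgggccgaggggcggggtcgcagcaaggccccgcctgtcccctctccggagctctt
The motifs searched on both strands, from 250 bases before to 50 after the start, were the antioxidant response element TGACNNNGC, the hypoxia element ACGTG or GCGTG, the metal response element TGCACNC or TGCGCNC, and the ZEB1-type E-box CACCTG. Of 35116 promoters of the same length in the RefSeq table, 13.3%, 48.4%, 29.6% and 20.6% held them in that order. GSTM1 held an antioxidant element match (TGACTTCGC, at -165) and a metal element match (at -114), and GSTM2 held a metal element match (at -248) and no match to the other 3 motifs in this window. The antioxidant element was also matched in GSTP1 (TGACTCAGC, at -66), in GSTM5 (at -159), at 2 places in GSTO1 and at a further RefSeq start of MGST1 (TGACAAAGC, at 31 after the start), and it is a description of letters, not of binding.

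Depth differed 10.32-fold, from 8609243 reads in Control_3D replicate 4 to 88848786 in Ni_3D replicate 2, and levels below are CPM, counts scaled to a fixed library size, after TMM scaling over all 20 libraries. The simple-epithelium keratins KRT8 (186 to 836 CPM) and KRT18 (134 to 388 CPM) were present in every library, and the secretory marker SCGB1A1 was at most 0.176 CPM. The basal markers KRT5, KRT14 and TP63 were at 0 in 12, 10 and 18 libraries. Each was highest in Ni_6W+2W replicate 1, at 4.04, 2.94 and 0.214 CPM. The epithelial cadherin CDH1 had a median of 0.475 CPM and was at most 2.05 CPM outside 2 libraries, Control_3D replicate 1 (11.4 CPM) and Ni_3D replicate 1 (29.1 CPM). Control_3D replicate 1 and Ni_3D replicate 1 also held reads of TFF1 (20.1 and 33.3 CPM) and ESR1 (3.52 and 10.7 CPM), markers of oestrogen-responsive epithelium, while in the other 18 libraries TFF1 was at most 0.116 CPM and ESR1 was 0. ZEB1, the transcription factor of the series title, which represses epithelial genes, split the Control_3D libraries into 11.9 and 12.4 CPM (replicates 1 and 2) and 1.05 and 1.76 CPM (replicates 3 and 4). Ni_6W replicate 1 was the highest of all 20 libraries for 7 of the 10 genes (GSTM2, GSTM3, GSTM4, GSTM5, GSTK1, GSTO1 and MGST3).

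Compared per length, on the authors' RPKM scale, GSTP1 was by far the most abundant of the 10 genes. Its median level was 435 RPKM, and it made up 52.8% to 70.5% of the summed RPKM of the 10 genes in each library. MGST1 (median 88.0 RPKM) and GSTK1 (68.0 RPKM) followed, with MGST1 above GSTK1 in 15 of 20 libraries. MGST3 (42.2 RPKM) and GSTO1 (42.1 RPKM) were not separated, since MGST3 was above GSTO1 in 10 of 20 libraries. Among the mu genes GSTM3 was the most abundant (9.38 RPKM), and GSTM1 (6.22 RPKM) and GSTM4 (5.65 RPKM) were close, with GSTM1 above GSTM4 in 12 of 20 libraries. GSTM2 (median 1.62 RPKM) was below GSTM4 in all 20 libraries, and GSTM5 was listed at 0 in 13 libraries. GSTM2, the gene the set is named for, was a minor member, at 0.0192% to 0.696% of the summed RPKM.

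**Figure D1:**
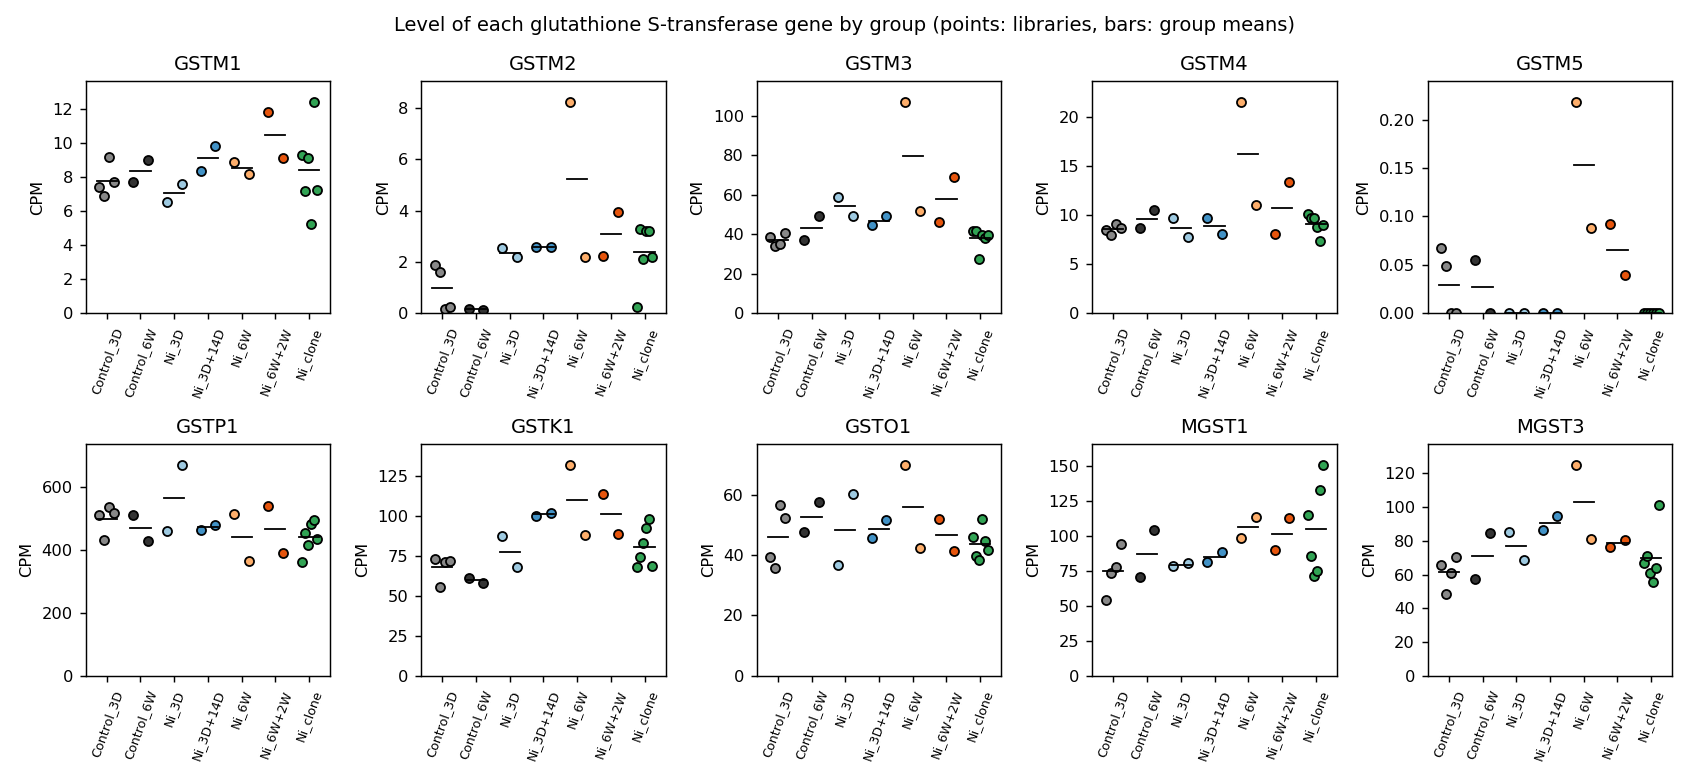
Level of each of the 10 genes (y axis, CPM, linear, from 0) in the 7 groups (x axis), with 1 point per library and a bar at the group mean. The GSTM2 panel shows both Control_6W libraries near 0 and Ni_6W replicate 1 at 8.23 CPM, while GSTP1 stays between 361 and 670 CPM in all 20 libraries.

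GSTM2 had the widest range of the 9 genes with reads in every library, 67.7-fold between its lowest and highest library, against 1.85-fold for GSTP1 and 3.91-fold for GSTM3. It stood at 0.164 and 0.122 CPM in Control_6W, at 8.23 and 2.20 CPM in Ni_6W and at 2.23 and 3.96 CPM in Ni_6W+2W. The clones 1 to 6 stood at 0.229, 3.28, 2.10, 3.22, 3.22 and 2.20 CPM. Clone 1 was thus at the level of the 6-week controls, and the other 5 clones were at the level of the uncloned washed cells. In the short arm GSTM2 was 1.89, 1.62, 0.155 and 0.234 CPM in Control_3D replicates 1 to 4, 2.53 and 2.17 CPM in Ni_3D, and 2.59 and 2.56 CPM in Ni_3D+14D. The libraries fell into separate ranges, with 5 libraries between 0.122 and 0.234 CPM and 15 libraries between 1.62 and 8.23 CPM. The low range held 4 of the 6 unexposed libraries and 1 of the 14 nickel libraries, and unexposed Control_3D replicates 1 and 2 were in the high range.

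**Figure D2:**
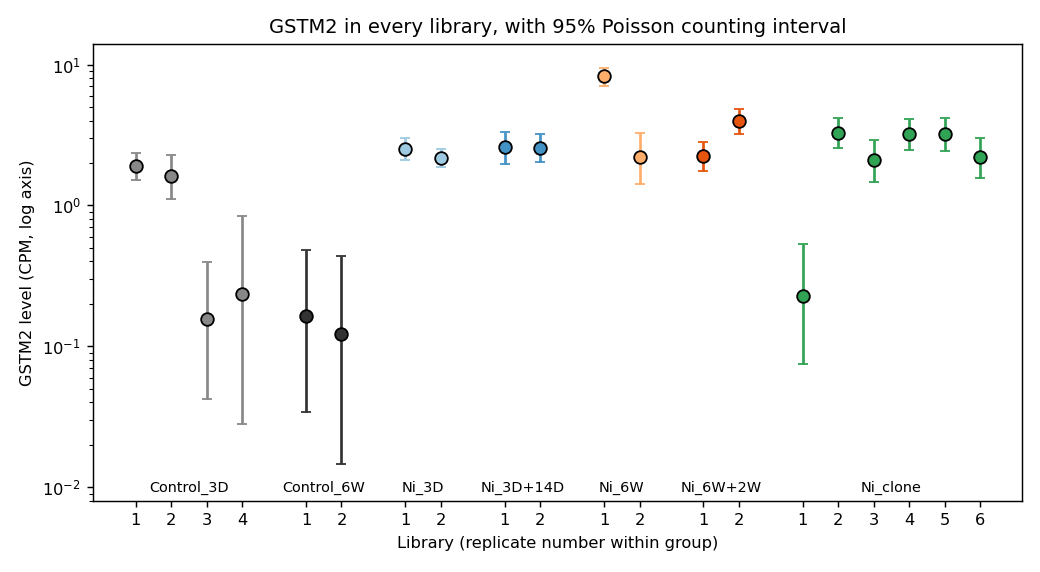
GSTM2 level in each of the 20 libraries (y axis, CPM, log scale; x axis, replicate number within each labelled group), with bars for the exact 95% Poisson interval of the read count. The 5 libraries Control_3D 3 and 4, both Control_6W and Ni_clone 1 lie at or below 0.234 CPM, and the other 15 lie at or above 1.62 CPM.

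The low values rest on few reads: 3 and 2 reads of GSTM2 in Control_6W, 4 and 2 in Control_3D replicates 3 and 4, and 5 in clone 1. Pooled over a group, Ni_6W had 214 reads against 5 in Control_6W. Ratios of pooled reads, each divided by the pooled TMM-scaled depth of its libraries, are given with exact 95% counting intervals. Against the 5 reads of Control_6W the ratio of levels was 43.3 in Ni_6W (given without an interval, since this comparison chose the gene), 20.7 (8.72 to 64.7) in Ni_6W+2W with 173 reads and 16.2 (6.85 to 50.2) in the clones with 264 reads. Clone 1 alone gave 1.59 (0.366 to 6.92). These intervals cover counting error only, and the spread between libraries is wider: the SD of GSTM2 was 4.26 CPM about a mean of 5.22 CPM in Ni_6W (n = 2) and 1.18 about 2.38 CPM in the clones (n = 6). In RNA from whole cultures, fewer cells that express a gene and less RNA of it per cell cannot be told apart.

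In Ni_6W, the comparison the set was chosen on, the fitted log2 fold change of GSTM2 against Control_6W was 5.17 (SE 1.16), and both nickel libraries were above both controls. Without Ni_6W replicate 1 it was 3.89 (SE 1.22). Of the 9 genes that passed the filter on low counts, 4 (GSTM2, GSTM3, GSTM4 and GSTK1) had both Ni_6W libraries above both controls, as had 24.4% of all genes tested. GSTM5, which did not pass it, also did, on 5 and 1 reads against 1 and 0. For the comparisons below the share of all genes set apart in this way was not taken. Libraries that lie apart are given there as values only. By edgeR 2.47% of all genes tested were called at an adjusted p under 0.05. Without Ni_6W replicate 1 the median log2 fold change of the 9 genes was 0.19, in place of 0.54.

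After the wash-out (Ni_6W+2W against Control_6W) GSTM2 was 4.39 higher on the log2 scale (SE 1.15), and both libraries were above both controls. It did not pass edgeR's quasi-likelihood test after Benjamini-Hochberg adjustment (adjusted p = 0.256). None of the 10 genes was called by edgeR in this comparison, where 0.0% of all genes were called; 2 members (GSTM2 and GSTK1) had an unadjusted p under 0.05, as had 13.1% of all genes. DESeq2 called GSTM2 (adjusted p = 0.0124), as it called 2.2% of all genes tested. The Control_6W libraries are the ones the choice of genes used, so this comparison is not independent of that choice, and the same holds for the clones against Control_6W.

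The clones against Control_6W gave the only call among the 10 genes in the 11 comparisons tested: GSTM2 rose by 4.0 on the log2 scale (SE 1.0, adjusted p = 0.0490 in edgeR after Benjamini-Hochberg correction), higher than both controls in 6 of 6 clones. In this comparison 5.26% of all genes were called, 2.89% as rises, so the single call among 9 genes tested is not read as particular to these genes. The call was lost in 7 of the 8 fits that left out 1 library, namely either control or any of clones 2 to 6 (adjusted p from 0.0629 to 0.301 in edgeR after Benjamini-Hochberg correction). Without clone 1 the call was kept (adjusted p = 0.00455 by the same test), where 5.83% of all genes were called. Clone 1 is the clone low in GSTM2 itself. Leaving it out thus follows the values compared, and that call is a description, not a test. The Control_6W libraries, with 3 and 2 reads of GSTM2, were under the minimum count of 10, so the gene passed the filter of this fit through the clones alone. These controls also served the choice of genes, and the fit took the 6 clones as replicates of 1 condition. The call with all 6 clones is therefore also a description, not a test. Fitted with all 20 libraries the adjusted p was 0.0600 in edgeR after Benjamini-Hochberg correction. Clone 1 was not low in the other mu genes: its GSTM1, GSTM3 and GSTM4 were 9.31, 41.7 and 10.1 CPM, inside or at the upper end of the clones' ranges of 5.24 to 12.4, 27.5 to 41.8 and 7.33 to 10.1 CPM.

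Against the 3-day controls, which the choice of genes did not use, no gene of the 10 was called. GSTM2 was 1.19 higher on the log2 scale in Ni_3D (SE 0.75) and 1.31 in Ni_3D+14D (SE 0.76), with adjusted p = 0.345 and 0.979 in edgeR after Benjamini-Hochberg correction. In each case both nickel libraries were above all 4 controls, a separation whose share among all genes was not taken. Ni_6W+2W stood 1.57 (SE 0.75) and the clones 1.23 (SE 0.73) above Control_3D, with adjusted p = 0.817 and 0.413 in edgeR after Benjamini-Hochberg correction. The share of all genes called was 4.33% in Ni_3D, 0.0% in Ni_3D+14D, 0.0% in Ni_6W+2W and 0.0722% in the clones. DESeq2 also called 0 of the 10 genes in these 4 comparisons. At an unadjusted p under 0.05 there was 1 member in Ni_3D (24.3% of all genes), 2 in Ni_3D+14D (4.11%), 2 in Ni_6W+2W (5.88%) and 1 in the clones (17.7%). These comparisons share their control libraries, and time in culture differs between Control_3D and the 6-week groups.

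The outcome for GSTM2 turned on which 3-day controls were used. Replicates 1 and 2 are the controls high in GSTM2 itself (1.89 and 1.62 CPM, against 0.155 and 0.234 CPM in replicates 3 and 4). The split thus follows the values compared, and the calls below are a description, not a test. Replicates 3 and 4 held 4 and 2 reads, under the minimum count of 10. Without replicates 1 and 2 the gene passed the filter through the nickel groups alone. Without Control_3D replicates 1 and 2, GSTM2 was called in Ni_3D (log2 fold change 3.67, SE 0.74, adjusted p = 0.0174), in Ni_3D+14D (3.80, SE 0.75, adjusted p = 0.0462) and in Ni_6W+2W (4.07, SE 0.75, adjusted p = 0.0363) in edgeR after Benjamini-Hochberg correction. In the clones it was 3.67 (SE 1.0), and with adjusted p = 0.0531 in edgeR after Benjamini-Hochberg correction it did not pass. The share of all genes called in these fits was 7.95%, 0.758%, 0.779% and 8.03% in that order. Leaving out replicates 3 and 4 instead gave log2 fold changes of 0.41, 0.54, 0.80 and 0.46, and none passed. By counting, with reads divided by depth as above, the pooled level of Ni_3D (310 reads) was 1.85 (1.5 to 2.3) times that of all 4 controls (124 reads) and 13.2 (6.0 to 36.3) times that of replicates 3 and 4 (6 reads). The control column of the authors' deposited 3-day table equals the mean of replicates 3 and 4, within 0.001 relative and absolute for 25411 of 25411 genes. That table lists GSTM2 at 1.49 RPKM in nickel, 0.199 RPKM in control and a log2 ratio of 2.12. Its nickel value lies below both Ni_3D libraries (1.92 and 1.52 RPKM), and its log2 ratio is smaller than the log2 of its RPKM columns (2.9).

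The 2 sets of controls were compared directly as well. GSTM2 was -2.82 on the log2 scale in Control_6W against Control_3D (SE 1.07, adjusted p = 0.577 in edgeR after Benjamini-Hochberg correction), the groups overlapped, and none of the 10 genes was called by edgeR or DESeq2 (0.0% of all genes by edgeR). Of the members 1, GSTM2, had an unadjusted p under 0.05, as had 8.31% of all genes. Without Control_3D replicates 3 and 4 the value was -3.58 (SE 0.74, adjusted p = 0.0340 in edgeR after Benjamini-Hochberg correction, where 2.02% of all genes were called). Without replicates 1 and 2 it was -0.32. These pairs of controls differ in GSTM2 itself, so the call is a description and not a test. Unexposed cells thus held both levels of GSTM2. The difference between the long and the short response after nickel, taken as Ni_6W+2W over Control_6W minus Ni_3D+14D over Control_3D, was 3.08 for GSTM2 (SE 1.39). It did not pass (adjusted p = 1.0 in edgeR after Benjamini-Hochberg correction), no member was called by edgeR or DESeq2 (0.0% of all genes by edgeR), and 1 member had an unadjusted p under 0.05 against 1.94% of all genes.

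Between nickel-treated groups no difference in GSTM2 passed the test. Ni_6W+2W was -0.78 on the log2 scale against Ni_6W (SE 0.88, adjusted p = 0.866), Ni_3D+14D 0.12 against Ni_3D (SE 0.88, adjusted p = 0.975) and the clones -0.39 against Ni_6W+2W (SE 0.67, adjusted p = 0.958), each in edgeR after Benjamini-Hochberg correction. With standard errors of this size, differences of several fold in either direction are inside the error. No member was called in these 3 comparisons by edgeR or DESeq2, where 0.0%, 0.255% and 0.028% of all genes were called by edgeR. At an unadjusted p under 0.05 there were 0, 0 and 1 members, the last being GSTM3, beside 6.59%, 12.6% and 6.61% of all genes. Ni_6W+2W against Ni_6W shares the Ni_6W libraries with the choice of genes.

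GSTM1, the enzyme best known for epoxides of polycyclic hydrocarbons and the nearest neighbour of GSTM2 downstream, stayed in a narrow range of 5.24 to 12.4 CPM. It was 7.72 and 9.0 CPM in Control_6W, 8.88 and 8.19 CPM in Ni_6W and 11.8 and 9.11 CPM in Ni_6W+2W. Control_3D was 6.87 to 9.18 CPM, Ni_3D 6.55 and 7.58 CPM, and Ni_3D+14D 8.38 and 9.81 CPM. Its lowest and highest libraries were both clones (clone 4 and clone 5), and its libraries overlapped between Ni_6W and Control_6W, where those of GSTM2 did not. Across the 20 libraries the Pearson correlation of log2(CPM + 1) between GSTM1 and GSTM2 was -0.02, given as a description.

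GSTM3, the mu enzyme known from testis and brain, was 37.1 and 49.0 CPM in Control_6W, 107 and 52.0 CPM in Ni_6W and 46.4 and 69.2 CPM in Ni_6W+2W. The high value of Ni_6W replicate 1 set the group apart, since the log2 fold change of 0.90 (SE 0.31) was 0.27 without it. In the short arm GSTM3 was 33.8 to 40.4 CPM in Control_3D and 59.0 and 49.4 CPM in Ni_3D, with both nickel libraries above all 4 controls. The log2 fold change there was 0.57 (SE 0.26) and did not pass (adjusted p = 0.201 in edgeR after Benjamini-Hochberg correction). It was 0.43 without the pair of libraries that hold TFF1 reads. Ni_3D+14D was 44.5 and 49.4 CPM, also above all 4 controls. In the clones GSTM3 was 27.5 to 41.8 CPM, all 6 below both Ni_6W+2W libraries. That difference of -0.61 on the log2 scale (SE 0.19) did not pass either (adjusted p = 0.706 in edgeR after Benjamini-Hochberg correction).

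GSTM4, the first gene of the cluster, was 21.5 and 11 CPM in Ni_6W against 8.71 and 10.5 CPM in Control_6W. Its log2 fold change of 0.77 (SE 0.35) was 0.19 without Ni_6W replicate 1. Ni_6W+2W was 8.11 and 13.4 CPM, with replicate 1 below both controls and replicate 2 above both. In Control_3D it was 7.95 to 9.06 CPM, in Ni_3D 9.65 and 7.79 CPM, in Ni_3D+14D 9.65 and 8.07 CPM, and in the clones 7.33 to 10.1 CPM. GSTM5, a mu gene known from brain, had 15 reads in all 20 libraries together, at most 5 in 1 library, and passed no filter. Its reads were found in 7 libraries of Control_3D, Control_6W, Ni_6W and Ni_6W+2W, and it gave 0 reads in Ni_3D, Ni_3D+14D and the clones.

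Since mu reads may be shared, the 5 mu genes were also summed to 1 feature. The log2 difference of the sum was 0.85 (SE 0.28) in Ni_6W and 0.42 (SE 0.28, adjusted p = 0.543) in Ni_6W+2W against Control_6W, and -0.06 (SE 0.14, adjusted p = 0.828) in the clones, in edgeR after Benjamini-Hochberg correction. GSTM3 supplies most of the summed reads (25445 of GSTM3 against 1227 of GSTM2 over all libraries), so the sum mainly follows GSTM3. Changes of GSTM2 alone hardly move it.

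GSTP1 on chromosome 11 (67351066 to 67354124, hg19, plus strand), the pi-class enzyme, was 429 to 512 CPM in Control_6W and 366 and 515 CPM in Ni_6W. It was 390 and 540 CPM in Ni_6W+2W, 361 to 496 CPM in the clones, 432 to 536 CPM in Control_3D and 460 and 670 CPM in Ni_3D. The groups overlapped in all of these comparisons, and with up to 56357 reads in a library counting error was small. Its highest library was 1.85 times its lowest, where the same ratio was 67.7 for GSTM2.

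GSTK1 on chromosome 7 (142960522 to 142966222, hg19, plus strand), the kappa-class enzyme of mitochondria and peroxisomes, had the highest correlation with GSTM2 among the members over all 20 libraries, but not among the 15 libraries high in GSTM2. It was 61.2 and 58.1 CPM in Control_6W, 132 and 87.8 CPM in Ni_6W and 114 and 88.5 CPM in Ni_6W+2W. The clones 1 to 6 were 68.2, 74.3, 82.8, 92.6, 98.0 and 68.4 CPM, all above both 6-week controls. Clone 1, low in GSTM2, was also the lowest clone for GSTK1, by a small margin over clone 6. The log2 fold change was 0.89 (SE 0.24) in Ni_6W (0.55 without Ni_6W replicate 1), 0.76 (SE 0.24) in Ni_6W+2W and 0.45 (SE 0.17) in the clones. The last 2 did not pass, with adjusted p = 0.259 and 0.127 in edgeR after Benjamini-Hochberg correction. Against the 3-day controls (73.3, 55.8, 71.1 and 72.0 CPM) Ni_3D+14D (99.9 and 102 CPM) and Ni_6W+2W stood 0.56 higher on the log2 scale (SE 0.20 in both), with all libraries above all 4 controls. Neither passed (adjusted p = 0.979 and 0.817 in edgeR after Benjamini-Hochberg correction), and Ni_3D, at 87.2 and 68.0 CPM, overlapped the controls. The clones overlapped the 3-day controls as well, with a log2 fold change of 0.28 (SE 0.13, adjusted p = 0.285 by the same test). Unlike GSTM2, GSTK1 did not split the 3-day controls into replicates 1 and 2 against 3 and 4, and its log2 fold change in Ni_3D+14D was 0.49 without replicates 1 and 2 and 0.63 without replicates 3 and 4.

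GSTO1 on chromosome 10 (106014468 to 106027222, hg19, plus strand), the omega-class thioltransferase known for the reduction of dehydroascorbate and arsenic species, was 35.6 to 69.9 CPM. It was 47.7 and 57.5 CPM in Control_6W, 69.9 and 42.2 CPM in Ni_6W and 38.5 to 51.9 CPM in the clones, and these groups overlapped. In the short arm Control_3D was 35.6 to 56.6 CPM, Ni_3D 36.8 and 60.1 CPM and Ni_3D+14D 45.5 and 51.7 CPM. The Ni_6W pair and the Ni_3D pair each held 1 library above and 1 below both 6-week controls.

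MGST1 on chromosome 12 (16506351 to 16530123, hg19, plus strand) encodes a membrane enzyme of the endoplasmic reticulum and outer mitochondrial membrane that also reduces lipid hydroperoxides. The 4 Control_3D libraries were 54.2 to 94.0 CPM, those of Control_6W 70.4 and 104 CPM and those of Ni_6W 98.5 and 114 CPM. Ni_6W+2W was 90.3 and 113 CPM, Ni_3D 78.8 and 80.5 CPM and Ni_3D+14D 81.3 and 88.3 CPM, inside the range of the controls of their arm or overlapping it. Its widest spread was among the clones, which stood at 115, 85.9, 71.5, 75.3, 133 and 151 CPM for clones 1 to 6 (SD 32.6 about a mean of 105 CPM). Against Control_3D the clones were 0.52 higher on the log2 scale (SE 0.23), which did not pass (adjusted p = 0.273 in edgeR after Benjamini-Hochberg correction), and the groups overlapped. MGST3, a membrane enzyme of the same family on chromosome 1 (165600110 to 165625372, hg19, plus strand), was 86.5 and 94.7 CPM in Ni_3D+14D, above all 4 Control_3D libraries (65.6, 48.4, 60.8 and 70.6 CPM). The difference, 0.56 on the log2 scale (SE 0.22), did not pass (adjusted p = 0.979 in edgeR after Benjamini-Hochberg correction). In the 6-week arm MGST3 overlapped its controls, at 57.3 and 84.7 CPM in Control_6W and 125 and 81.2 CPM in Ni_6W. It was 76.5 and 80.7 CPM in Ni_6W+2W, and the clones lay at 55.6 to 101 CPM.

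**Figure D3:**
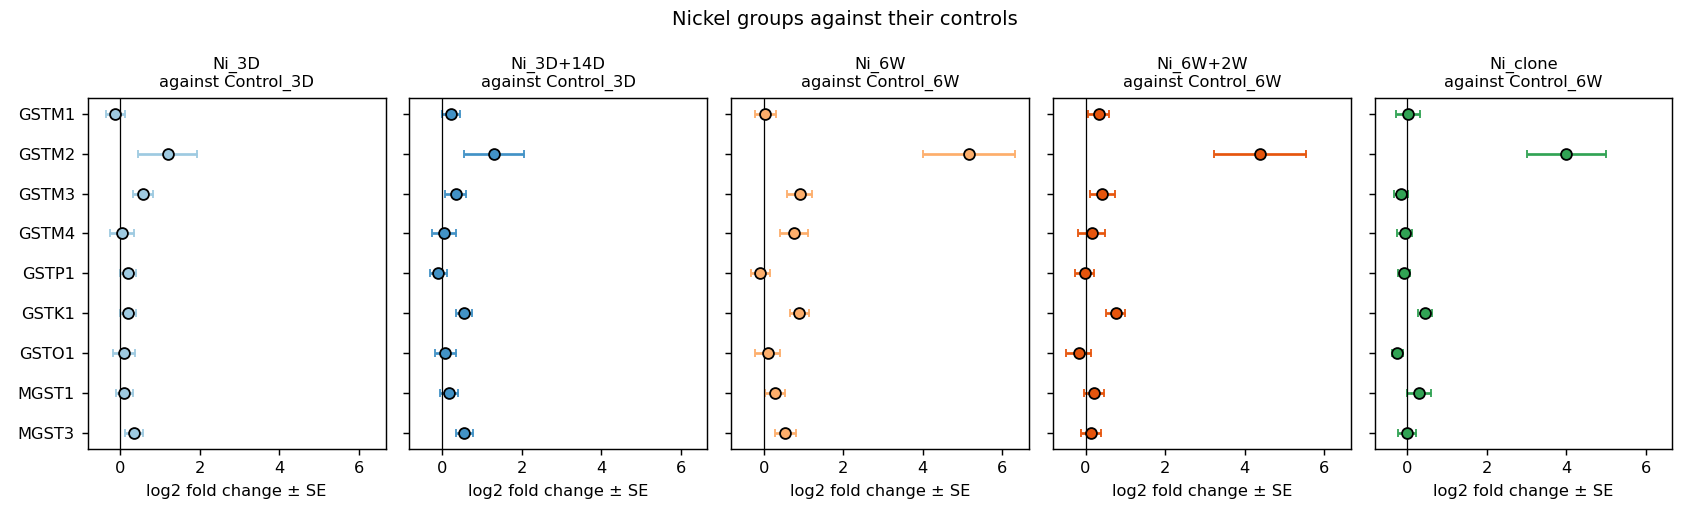
Log2 fold change (x axis) with its standard error (bars) for the 9 genes that passed the filter on low counts (rows), in 5 comparisons of a nickel group with its controls (panels). GSTM2 lies far to the right of the others in the 3 panels against Control_6W (5.17, 4.39 and 4.0) and nearer to 0, at 1.19 and 1.31, in both panels against Control_3D.

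As a list, the 9 genes tested had small medians in 4 of 5 comparisons. The median log2 fold change was 0.19 in Ni_3D, 0.22 in Ni_3D+14D, 0.54 in Ni_6W, 0.22 in Ni_6W+2W and -0.01 in the clones, each against the group's own controls. Over all genes tested the medians were 0.03, 0.00, 0.03, 0.01 and 0.01 in that order. The number of genes with a positive value was 8, 8, 8, 7 and 4 of 9. Outside Ni_6W each median was below the median standard error of the 9 genes (0.24 in Ni_3D, 0.23 in Ni_3D+14D, 0.27 in Ni_6W+2W and 0.19 in the clones). Leaving out 1 library gave 0.12 to 0.21 in Ni_3D, with the lowest value without Control_3D replicate 2. In Ni_6W+2W it gave 0.11 and 0.45 without Control_6W replicates 1 and 2, and 0.37 and 0.10 without its own replicates 1 and 2. In Ni_6W it gave 0.28 and 0.84 without Control_6W replicates 1 and 2.

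Other genes, not all of glutathione metabolism, were read from 6 lists with 74 genes, of which 63 (61 in the fits with clones) passed the filter on low counts. The lists cover other glutathione transferases, glutathione synthesis, reduction and peroxidases, conjugate export and breakdown, the NRF2 system, and the neighbours of the mu cluster. In Ni_3D 1 of 63 rose and 1 fell by edgeR at an adjusted p under 0.05, where 2.83% of all genes rose and 1.51% fell. The riser was ABCC3, an exporter of glutathione and glucuronide conjugates, at 76.6 and 30.9 CPM against 6.42, 5.10, 1.24 and 6.90 CPM in Control_3D (log2 fold change 3.48, SE 0.78, adjusted p = 0.0348 in edgeR after Benjamini-Hochberg correction). Its higher library was Ni_3D replicate 1, one of the pair with TFF1 reads, and without that pair the log2 fold change was 2.84 and did not pass (adjusted p = 0.181 in edgeR after Benjamini-Hochberg correction). The call was also lost without either Ni_3D library alone and without Control_3D replicate 2, 3 or 4, and it was kept in 5 of 14 alternatives. The gene that fell was GNAI3, a G protein subunit encoded beside the mu cluster, at 73.0 and 64.3 CPM against 108 to 133 CPM (log2 fold change -0.86, SE 0.17, adjusted p = 0.0237 in edgeR after Benjamini-Hochberg correction), called in 6 of 14 alternatives and lost without any 1 of those same 5 libraries.

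In the clones against Control_6W 3 of 61 list genes rose and 2 fell, beside 2.89% and 2.38% of all genes. OPLAH (5-oxoprolinase, which returns glutamate in the glutathione cycle) rose by 1.16, GPX7 (a peroxidase of the endoplasmic reticulum) by 1.82 and ANPEP (aminopeptidase N, which can cleave glutathione breakdown products) by 1.58 on the log2 scale. CHAC2, which degrades glutathione, fell by 0.74. In each of these 4 genes all 6 clones lay beyond both Control_6W libraries. Adjusted p-values ran from 0.0303 (CHAC2) to 0.0471 (OPLAH) in edgeR after Benjamini-Hochberg correction, and each call was lost without Control_6W replicate 2, with adjusted p from 0.170 to 0.254 by the same test. Each was lost without clone 2 as well, and of 13 alternatives 4 kept the call of OPLAH, 5 that of CHAC2, 7 that of GPX7 and 7 that of ANPEP. Unexposed Control_3D replicates 1 and 2 held GPX7 at 5.55 and 4.96 CPM, above all 6 clones (2.58 to 4.17 CPM). Replicates 3 and 4 held it at 1.86 and 1.87 CPM. OPLAH overlapped between Control_3D (4.3 to 8.31 CPM) and the clones (6.93 to 12.5 CPM). CHAC2 did too, with Control_3D replicate 1 and clone 6 both at 11.5 CPM. ANPEP did not overlap, at 7.16 to 11.2 CPM in Control_3D and 14.5 to 35.4 CPM in the clones. No list gene was called in Ni_3D+14D, Ni_6W+2W or the other comparisons outside Ni_6W. In Ni_6W edgeR called 0 of 63 list genes as rises and 2 as falls, where 2.47% of all genes were called. The 2 genes are named for that call, and only their levels are given. KEAP1, the adaptor that sends NRF2 to degradation, was 76.2 and 90.8 CPM against 168 and 159 CPM in Control_6W. CHAC2 was 3.48 and 8.63 CPM against 19.9 and 18.2 CPM in the same comparison. None of the 14 other glutathione transferase genes, of which 8 (6 in the fits with clones) were tested, was called in any comparison.

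The genes most like GSTM2 were sought by the Pearson correlation of log2(CPM + 1) over all 20 libraries, among 13054 genes whose mean was 1 CPM or more, as a description. The first 5 were PTGR1 (r = 0.94), a reductase of prostaglandins, leukotriene B4 and reactive alkenals, NEK6 (0.88), a mitotic kinase, CDK9 (0.87), the kinase of the elongation factor P-TEFb, SLC7A4 (0.87), a member of the cationic amino acid transporter family, and C1orf115 (0.87). PTGR1 was 48.7 to 77.0 CPM in the 5 libraries low in GSTM2 and 104 to 226 CPM in the other 15. SLC7A4 was at most 0.468 CPM in those 5 libraries and at least 0.756 CPM in the other 15. The coefficients rest largely on this separation and on Ni_6W replicate 1: among the 14 libraries left without the 5 low ones and that library they were 0.45, 0.17, 0.32, 0.42 and 0.56 in the same order. ZEB1 had r = 0.76 (rank 129), which was 0.17 among the 15 libraries, and GSTK1 had 0.72 (rank 227), which was 0.66 among the 15. GSTM4 and GSTM3 had 0.41 and 0.53 over all 20 libraries and 0.82 and 0.78 among the 15. Without Ni_6W replicate 1 as well, GSTK1, GSTM3 and GSTM4 were at 0.47, 0.46 and 0.43. Of the 5 libraries low in GSTM2, 4 were also the lowest in ZEB1 (0.608 to 1.76 CPM), and clone 1 was not, with ZEB1 at 13.6 CPM.

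PTGR1, NEK6 and CDK9 all lie on the long arm of chromosome 9. Of the 100 genes most like GSTM2, 21 lay on chromosome 9 (11 of 100 by Spearman's rho), against 4.17% of all 13054 genes. The median deviation of the 407 chromosome 9 genes beyond 71 Mb from their own mean over libraries, on the log2 scale, was -0.20 and -0.22 in Control_3D replicates 3 and 4, -0.22 and -0.26 in Control_6W and -0.27 in clone 1. In the other 15 libraries it was 0.02 to 0.21. The 5 libraries low in GSTM2 were thus the 5 lowest for these genes, clone 1 included, and the deviations of the 135 genes of the short arm (below 48 Mb) were 0.02 to 0.13 in the same 5 libraries. This view was chosen after the values were seen, GSTM2 itself lies on chromosome 1, and its part in the GSTM2 levels was not tested. Both Control_6W libraries are in the low group, so in the 6-week arm it cannot be told apart from nickel.

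**Figure D4:**
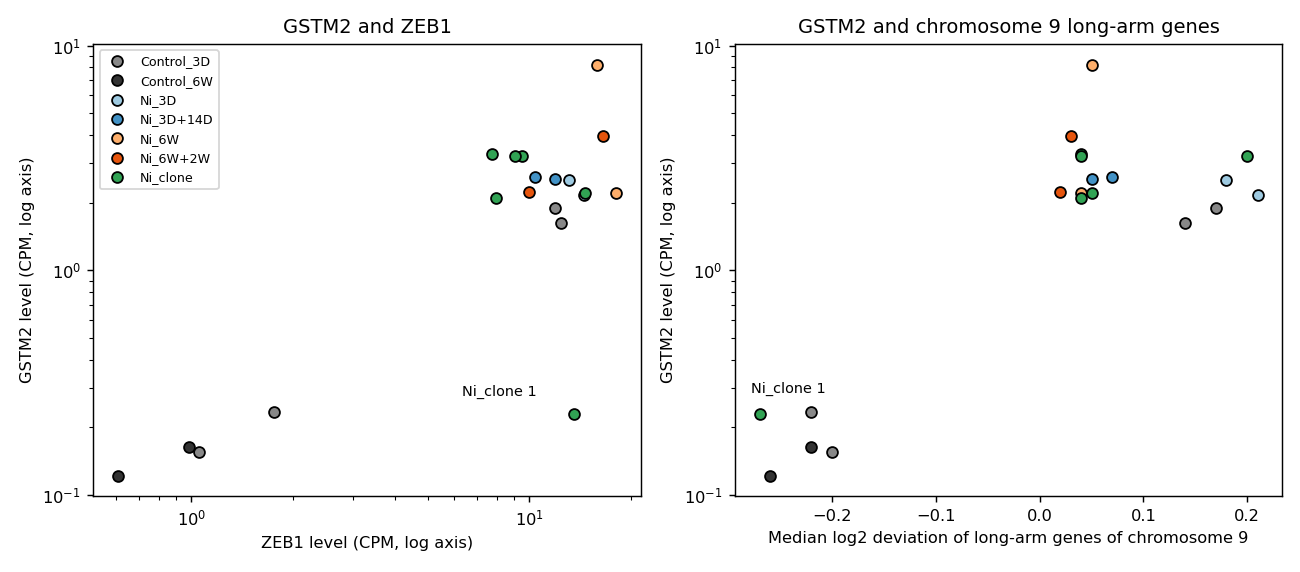
GSTM2 level (y axis, CPM, log scale) of the 20 libraries against ZEB1 (left, CPM, log scale) and against the median log2 deviation of 407 genes of the long arm of chromosome 9 (right), coloured by group. Clone 1 has ZEB1 at 13.6 CPM with GSTM2 at 0.229 CPM on the left, and joins the other 4 low libraries, at -0.27, on the right.

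The authors' deposited tables list GSTM2 at 3.67 RPKM in the 6-week nickel column and 0.141 RPKM in its control, with a log2 ratio of 2.77. In the authors' deposited table for Ni_6W+2W the values are 2.37 RPKM, 0.141 RPKM and 1.73, and for Ni_3D+14D 1.92 RPKM, 0.199 RPKM and 1.22. For the single clones the authors' deposited tables give log2 ratios of 0.09 in clone 1 and 0.87 to 1.28 in clones 2 to 6, which are smaller than the log2 of the RPKM columns beside them (0.62, and 3.49 to 4.14). The log2 of the RPKM columns was also larger than the listed ratio in Ni_6W (4.7), Ni_6W+2W (4.07) and Ni_3D+14D (3.27).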

How the data were processed

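RNA of 20 BEAS-2B libraries was prepared with a TruSeq kit, per the labels' protocols. The authors deposited raw read counts per RefSeq gene, with RPKM values they had computed beside each count, per the file headers. The authors' deposited comparison tables hold group RPKM, a log2 ratio and test columns. In 2 of these tables, those of the 3-day exposures, the deposited test columns are p-values and adjusted p-values, and in the other 8 the column headed as a p-value holds a signed score, per the file headers and values. Neither was used. The submitters' processing notes name STAR 2.4, DESeq, DESeq2, GRCh37 and hg19. The role of each, read length, strand and counting rule: not given in the sources used here.

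Libraries were joined by RefSeq identifier and the 10 genes taken by symbol. The members, gene lists and motifs were chosen with earlier results of these data known. Every gene was fitted in edgeR 4.0.16 (R 4.3.3): TMM, filterByExpr (minimum count 10, minimum total 15), robust quasi-likelihood F test, Benjamini-Hochberg adjustment over all genes tested, calls at an adjusted p under 0.05. The 14 libraries without clones shared 1 fit (biological coefficient of variation 29.7%), and the 6 clones were fitted with the compared group (24.7% with Control_6W). Standard errors are the log2 fold change over the square root of F. Totals ran from 8609243 to 88848786 reads, and exact 95% Poisson intervals cover counting error only. The edgeR script was also run on simulated data with planted changes. The outcome is not reported here, and no support for any call is drawn from it. No 2 libraries agreed within counting error (lowest chi-square per degree of freedom 8.98). That lowest value was between groups, for Ni_6W replicate 2 and Ni_6W+2W replicate 2, which carry the same replicate number. Control_3D replicate 3 was at 11.1 with Control_6W replicate 1 and at 11.3 with Control_3D replicate 4. Genes named were the 10 members, up to 3 called genes of each pathway list in a comparison, the 5 genes most like GSTM2, and TFF1, ESR1, ZEB1 and the keratins. SCGB1A1 and CDH1 were named after their values were seen, and of the mesenchymal markers only ZEB1 is named. The values of 1 called gene of the pathway lists are not reported here. Alternatives were a replicate block, DESeq2 1.42.0, no filter, RLE size factors, other library sets, each library left out and the mu genes summed.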

Additional observations from a re-analysis of the deposited data

Results flagged for a closer look

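In 19 tests of single libraries within groups of 4 or 6 (Dixon's criterion for the gap of the highest or lowest library), 3 libraries stood apart, and chance flags about 1 in 20 such groups. GSTM3 was 27.5 CPM in clone 3, the lowest of the 6 clones, beside 38.2 to 41.8 CPM in the others. MGST3 was 101 CPM in clone 6, the highest of the 6 clones, beside 55.6 to 71.2 CPM. GSTK1 was 55.8 CPM in Control_3D replicate 2, the lowest of the 4 controls, beside 71.1 to 73.3 CPM. GSTM2 in clone 1, at 0.229 CPM beside 2.10 to 3.28 CPM, did not meet the criterion. The criterion was taken on linear CPM, where a value near 0 has little room to lie below the rest. It was not applied on the log2 scale used for fold changes, so clone 1 is not thereby shown to be usual.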

How the results depend on the processing

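GSTM2 was the member behind each change in the number of members called. With all libraries 0 members were called in Ni_3D, Ni_3D+14D and Ni_6W+2W against Control_3D, and 1 in each without Control_3D replicates 1 and 2. Those are the controls high in GSTM2 itself. In Ni_6W+2W against Control_6W 1 member was called by DESeq2 and 1 with the replicate number as a block, in place of 0. In the clones against Control_6W 0 were called with the replicate block and 0 with all 20 libraries in 1 fit, and 0 to 1 when 1 library was left out, in place of 1. In Control_6W against Control_3D 1 was called with the replicate block and 1 without Control_3D replicates 3 and 4, in place of 0. Replicates 3 and 4 are the controls low in GSTM2 itself. The block used the replicate numbers of the labels, which name no shared culture, and same-numbered libraries deviated together only weakly (correlations from -0.207 to 0.265), so the numbers were not taken as pairs. With the 5 mu genes summed, the log2 fold change was 0.85 in Ni_6W (5.17 for GSTM2 alone), and the sign changed against GSTM2 in the clones against Control_6W (-0.06), in Ni_3D+14D against Ni_3D (-0.10) and in Control_6W against Control_3D (0.18), since GSTM3 supplies most of the sum. GSTM2 changed sign without Ni_6W replicate 1 in Ni_6W+2W against Ni_6W (0.50, and -1.41 without Ni_6W replicate 2) and without Ni_6W+2W replicate 2 in the clones against Ni_6W+2W (0.09, and -0.75 without Ni_6W+2W replicate 1). Elsewhere the cause of a changed call was not tested. RLE size factors and the absence of a filter changed no count of members called. By Spearman's rho 1 of the 5 genes most like GSTM2 (SLC7A4) stayed among the first 5. The 2 to 5 reads of GSTM2 in the low libraries limit how exactly any of its fold changes is known.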
